A study of Mus musculus with 80 samples.

Results

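The 10 neuropeptide genes that mark neurons lying next to AgRP neurons in the hypothalamus were followed through 80 RNA-seq libraries of mouse arcuate tissue: Pomc, Cartpt, Sst, Gal, Nts, Ghrh, Kiss1, Tac2, Trh and Penk. They were chosen by name, as 10 of the 23337 genes in the deposited table, and each library's level was set beside its own level of Agrp, the gene that defines the labelled cells. The study asked how nutrient state, time of day, leptin and the clock gene Bmal1 shape transcription in AgRP neurons of the arcuate nucleus. Times are zeitgeber times (ZT), counted in hours after lights on: ZT2 and ZT14 in most groups and ZT5 in 1 set.

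The libraries came from 3 kinds of mice. In NPY::hrGFP mice, cells that carry a green fluorescent protein under the Npy gene were dissociated from arcuate slices and sorted by flow cytometry. These 33 libraries comprised 6 ad libitum fed at ZT2, 3 ad libitum at ZT14, 7 fasted at ZT2, 8 fasted at ZT14, 5 refed at ZT2 and 4 refed at ZT14, with an effective fast of 24 hours and refeeding for 1 hour. In AGRP-Cre;RiboTag mice, ribosomes tagged by Cre in AgRP neurons were immunoprecipitated with their RNA, in 3 ad libitum libraries at ZT2, 4 at ZT14 and 5 fasted libraries at each time. A further 25 libraries came from WT;BMAL1fx controls and AGRP-Cre;BMAL1fx knockouts, in which Cre acts on a floxed Bmal1, given PBS or leptin at ZT2 or ZT14. Each of those 8 groups held 3 libraries except the control PBS group at ZT2, which held 4. At ZT5, 2 WT;BMAL1fx and 3 AGRP-Cre;BMAL1fx libraries had no treatment. The labels call all 80 libraries AgRP+ neurons and number them as collections. They do not say that collections were separate mice, and p-values measure only the spread between libraries. How the cells of the BMAL1fx mice were obtained is not described separately, and no fast was recorded for them. The deposited column names set the sorted libraries apart by nutrient state. A batch along those sets could not be told apart from nutrient state.

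AgRP neurons release AgRP, NPY and GABA and drive feeding when energy is short, while their neighbours that make POMC peptides restrain it. POMC is cut to alpha-melanocyte-stimulating hormone, which AgRP opposes at the melanocortin receptors. Other arcuate neurons make kisspeptin with neurokinin B and dynorphin to time reproductive hormone release, or GHRH to drive growth hormone release from the pituitary. Somatostatin, encoded by Sst, inhibits that release and is also made in some AgRP neurons. In RNA pooled from many cells, a neighbour's peptide gene can be read because labelled cells express it or because other cells came along. Fewer cells of a type and less RNA per cell cannot be told apart in such pools.

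The promoters of 3 members are shown because Nts, Sst and Cartpt were called higher after fasting at ZT2 in both kinds of tissue preparation, and a short motif known for activity-dependent transcription was found in each. Gal and Pomc were also called in both, and their promoters held no match to any motif searched. The sequences are RefSeq's for GRCm38.p6, the 250 bases before the annotated start of each gene, 5′ to 3′ on the gene's strand, and capitals mark the motif. For Nts the window is chr10:102490419-102490668 on the minus strand and the capitals are a match to the AP-1 motif TGANTCA. For Cartpt it is chr13:99900684-99900933 and for Sst chr16:23890845-23891094, both on the minus strand, and the capitals are the cAMP response element TGACGTCA.
Nts: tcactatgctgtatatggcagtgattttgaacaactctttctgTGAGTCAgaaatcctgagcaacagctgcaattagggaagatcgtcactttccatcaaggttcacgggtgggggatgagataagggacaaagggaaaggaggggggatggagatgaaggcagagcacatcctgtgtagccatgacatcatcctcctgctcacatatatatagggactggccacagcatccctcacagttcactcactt
Cartpt: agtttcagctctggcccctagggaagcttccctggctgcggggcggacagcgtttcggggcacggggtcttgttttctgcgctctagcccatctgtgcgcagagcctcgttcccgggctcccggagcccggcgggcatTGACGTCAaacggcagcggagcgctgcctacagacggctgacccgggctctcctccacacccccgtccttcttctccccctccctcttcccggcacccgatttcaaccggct
Sst: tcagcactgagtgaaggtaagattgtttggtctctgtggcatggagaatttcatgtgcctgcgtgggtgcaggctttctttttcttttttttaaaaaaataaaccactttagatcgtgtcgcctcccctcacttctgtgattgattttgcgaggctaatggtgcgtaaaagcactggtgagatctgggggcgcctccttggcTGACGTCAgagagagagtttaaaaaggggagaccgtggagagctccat
The cAMP response element lay at -48 to -41 in Sst and at -112 to -105 in Cartpt, counted from the start, and the AP-1 match TGAGTCA at -207 to -201 in Nts. Over both strands of all 32851 RefSeq promoters of the same 300 bases, which add 50 bases after the start, 588 held TGACGTCA (1.79%) and 2565 held TGANTCA (7.81%). The motifs did not overlap each other in these members. The E-box CACGTG, in 7.15% of promoters, and TTCNNNGAA, bound by STAT factors and in 8.30%, had no match in the promoters of the 9 members that were in the table. Penk was named only. A match is a run of letters and not evidence of binding.

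Sequencing depths overlapped across preparations. Whole reads could be recovered from the deposited normalised counts in 79 of 80 libraries, with 8158000 to 27380000 reads in sorted libraries, 11350000 to 23090000 in RiboTag, 5925000 to 33980000 in the leptin series and 10810000 to 17290000 at ZT5, rounded to 4 digits. Agrp and Npy were the most abundant of the genes followed in sorted cells. The glial markers were low in most sorted libraries and high in RiboTag. Summed over 8 astrocyte genes, sorted libraries held 1806 to 6011 normalised counts, except 4 fasted libraries: ZT2 replicates 3 (16230) and 6 (37070) and ZT14 replicates 3 (33590) and 4 (23320). Among RiboTag libraries 5 stood above 50000 in the same sum, the highest being fasted ZT2 replicate 3 at 312100, and the other 12 held 16410 to 30950. The summed markers of pituitary and pars tuberalis were high in 2 RiboTag libraries, fasted ZT2 replicates 2 (150200) and 4 (148500), where growth hormone (Gh) stood at 130600 and 125400. In sorted cells they were high in ad libitum ZT2 replicate 5 (11180) and fasted ZT14 replicate 2 (2344), mostly from Cga, the shared subunit of pituitary glycoprotein hormones.

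The members fell into genes read in every library and genes read in few of them. Pomc, Cartpt, Sst and Gal had at least 10 normalised counts in all 33 sorted libraries, Penk in 31 and Nts in 28. Trh, which encodes thyrotropin-releasing hormone, reached 10 in 14 sorted libraries, Ghrh in 5, and Kiss1 and Tac2, which encode kisspeptin and neurokinin B, in 3 each. Ghrh was listed at 0 in 20 of the 33, Kiss1 in 23 and Tac2 in 24. The GHRH and kisspeptin neurons' own peptide genes were thus near the limit of detection in most sorted libraries. In RiboTag all 10 members but Kiss1 and Ghrh reached 10 counts in every one of 17 libraries, Ghrh in 16 and Kiss1 in 3. In the 25 libraries of the leptin series Tac2 was at 0 in all, Kiss1 in 23 and Ghrh in 22, with no value above 4.489.

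**Figure D1:**
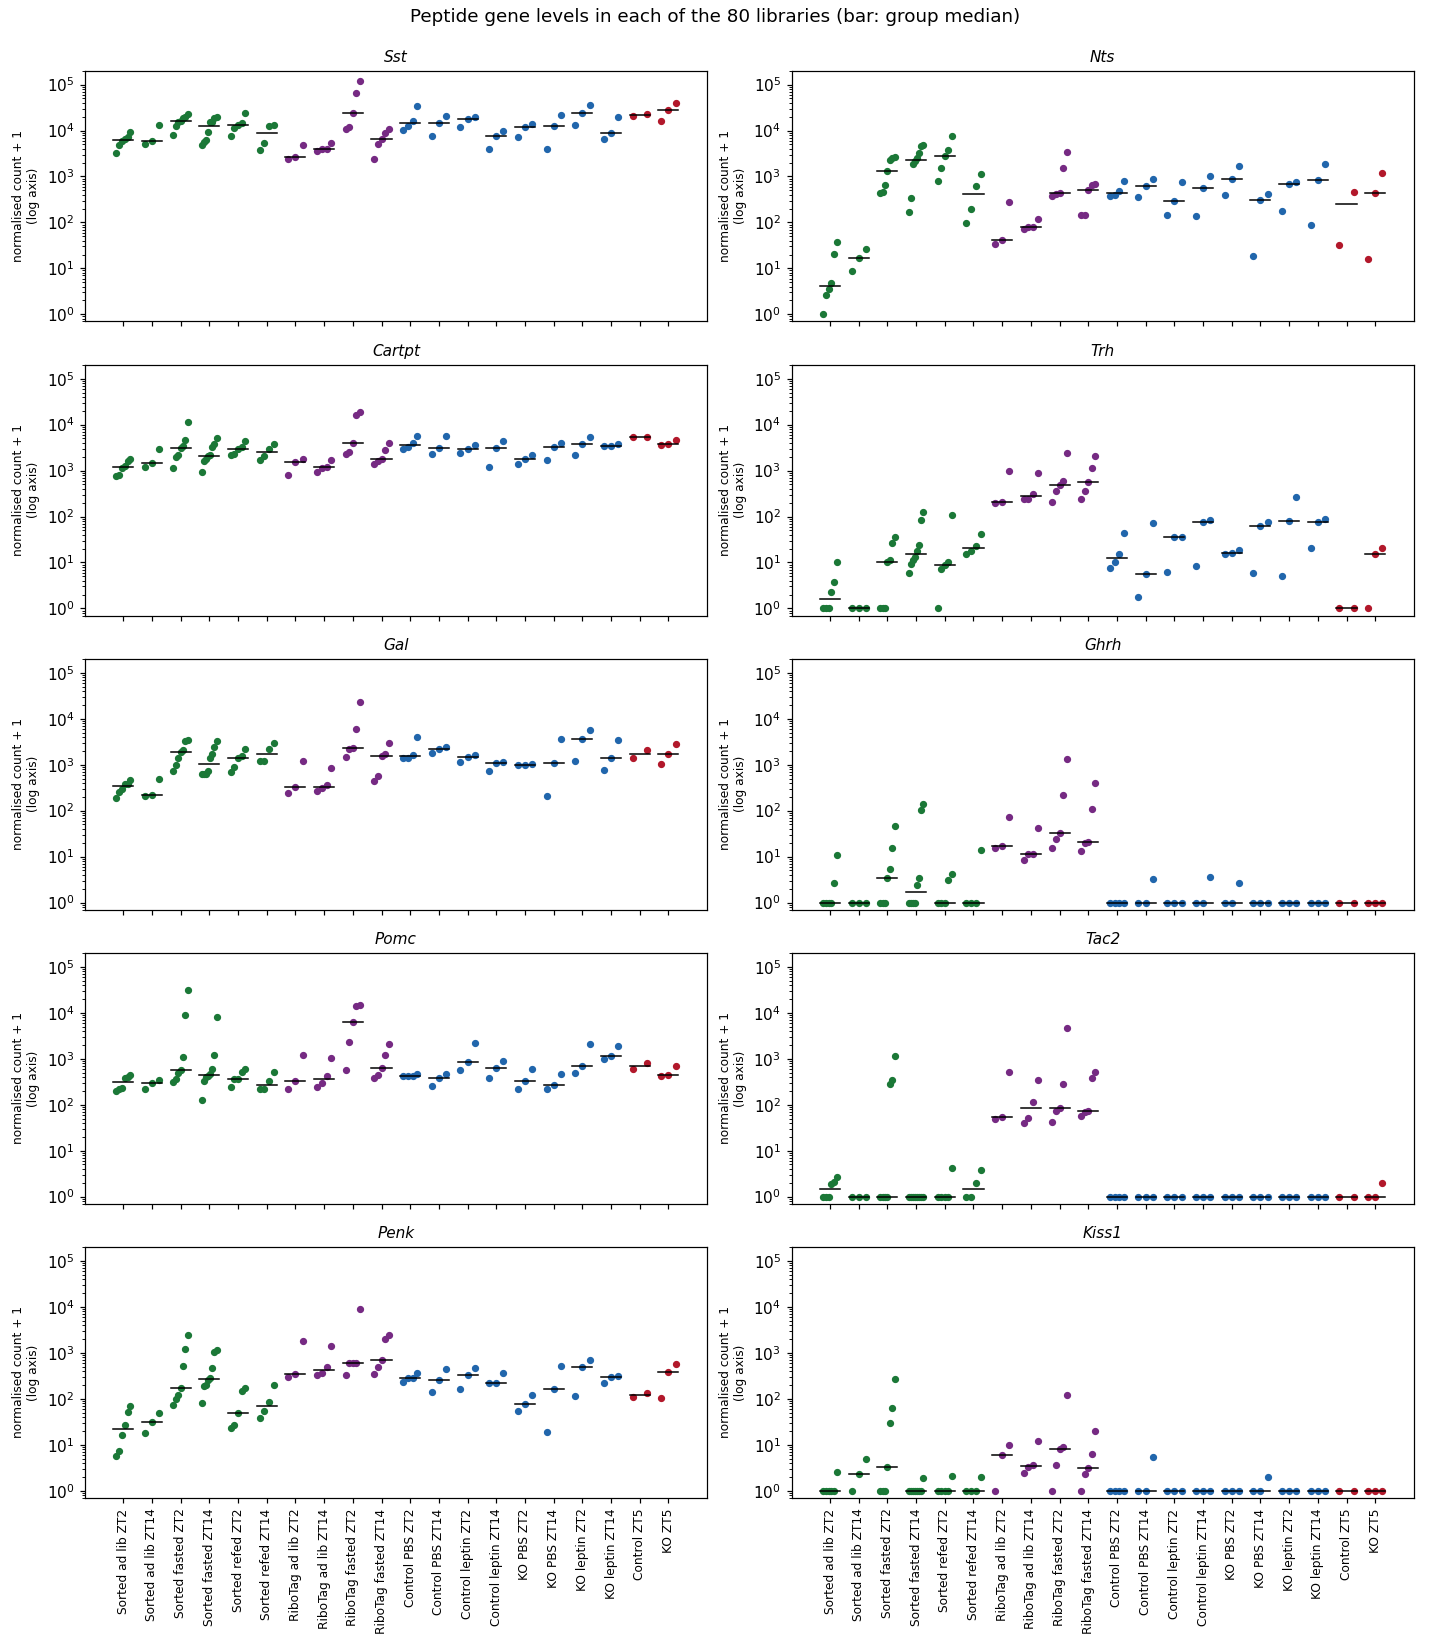
Normalised count plus 1 (log axis) of each of the 10 peptide genes in every library, by the 20 groups; points are libraries and bars group medians, with sorted cells in green, RiboTag in purple, the leptin series in blue and ZT5 in red. Pomc, Cartpt, Sst and Gal are present in every library, whereas Ghrh, Kiss1 and Tac2 are at or near 0 in most sorted libraries and in the leptin series.

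Per kilobase of principal transcript, Sst led the members in all 4 experiments. Its median level in sorted libraries was 15600 normalised counts per kilobase, against 156800 for Agrp and 693300 for Npy on the same scale. Cartpt, whose peptide reduces feeding, followed at 1724 per kilobase, then Gal (galanin, a peptide that promotes feeding) at 1238, Nts (neurotensin) at 527.7 and Pomc at 370.2. Penk, which encodes the enkephalins, stood at 59.05 per kilobase and Trh at 6.752, and the medians of Ghrh, Kiss1 and Tac2 were 0. The RiboTag order put Gal (1502 per kilobase) and Cartpt (1464) side by side below Sst (7319), then Pomc (613), Penk (408.5), Trh (257.3) and Nts (222.5). Ranges of neighbours in these orders overlapped across libraries. Agrp had a median of 29750 per kilobase in RiboTag.

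Set against Agrp, the members were minor messages in sorted cells. Sst had a median of 103 normalised counts per 1000 of Agrp in the same library (range 22.5 to 281), Cartpt 22.1 (6.68 to 55.6), Gal 8.91 (2.09 to 42.5) and Pomc 4.01 (1.07 to 138). Nts spanned 0 to 31.9 per 1000 Agrp counts, and Penk 0.0651 to 22.6. Npy, made by the same cells as Agrp, stayed between 2700 and 5600 per 1000. Pomc thus varied over a far wider span of ratios than Npy. In RiboTag the same ratios were higher and wider, with medians of 276 for Sst, 79 for Cartpt, 33.6 for Gal, 26.5 for Pomc and 24.4 for Penk, and a highest Pomc ratio of 425 in fasted ZT14 replicate 4. That library had 2910 counts of Agrp, the lowest of all 17.

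**Figure D2:**
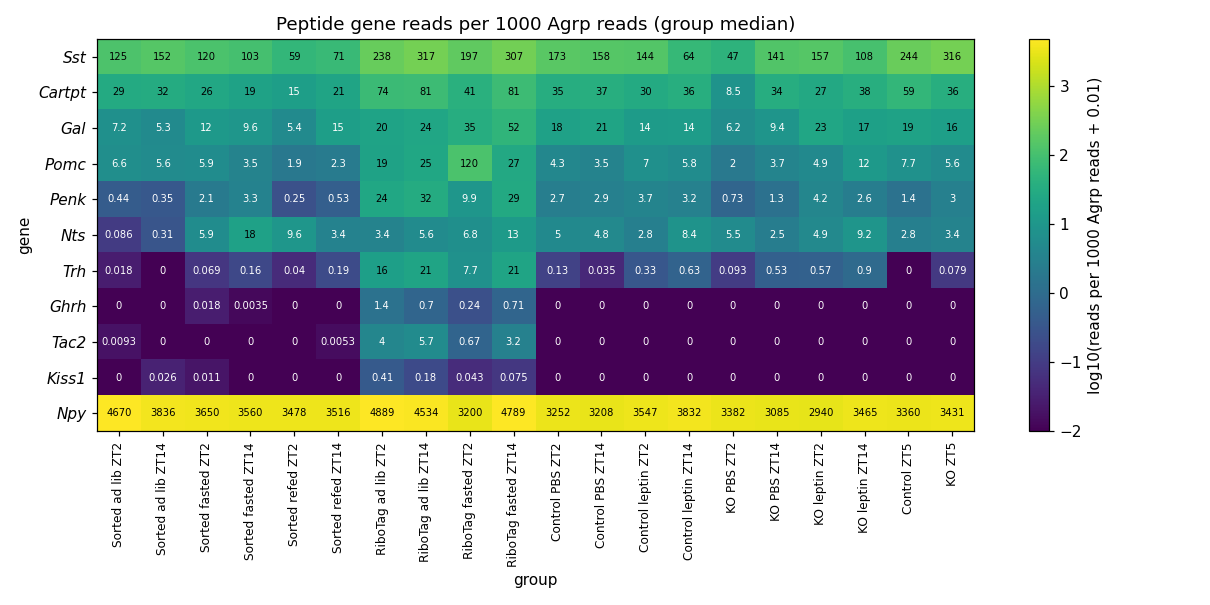
Group medians of each peptide gene and of Npy per 1000 normalised counts of Agrp in the same library, with genes in rows, groups in columns and colour on a log scale. Npy lies between 2940 and 4889 per 1000 in every group, while Nts goes from 0.0857 per 1000 in ad libitum sorted cells at ZT2 to 5.87 in fasted ones and Penk, Trh and Tac2 stand higher in RiboTag than in sorted cells.

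Fasting at ZT2 in sorted cells was accompanied by higher levels of Nts, Gal, Penk, Sst, Cartpt and Pomc, with no member lower. These were 6 of the 8 members that reached 10 counts in enough libraries outside the fasted ZT2 group to be tested without it. Kiss1 and Tac2 were also called, but they entered the test only through 3 libraries of that group, where they are high, and support no count. Counted with them, 8 members were called, and 5 were called without the astrocyte-rich libraries, or without fasted replicate 3 or 6 alone: Nts, Gal, Penk, Sst and Cartpt each time. Of 8 astrocyte markers 3 were higher in the same comparison, Aldh1l1 by 4.39, Agt by 4.62 and Gja1 by 4.28, and their part in the other calls was not tested. Over all 14931 genes tested with limma at an adjusted p under 0.05, 18.3% were higher and 19.2% lower. The median difference was 1.82 over the 8 members testable without the fasted group and -0.02 over all genes, on the log2(normalised count + 1) scale used throughout, which understates changes of low genes. Agrp itself rose by 1.58 ± 0.33 (SE, adjusted p = 0.0003) and Npy by 1.16 ± 0.42 (adjusted p = 0.0279). The ad libitum libraries serve both the fasting and the refeeding comparisons at each time, so these are not independent of each other.

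Neurotensin had the largest fitted difference of the members on this scale. Nts stood at 0 to 35.91 normalised counts in the 6 ad libitum libraries at ZT2 (median 3.177) and at 440.3 to 2604 in the 7 fasted ones (median 1322). Every fasted library lay above every ad libitum library. The difference was 7.66 ± 0.77 (SE) in log2 units (adjusted p = 2.93e-09), and the summed reads of 7 fasted and 5 ad libitum libraries with recovered reads, 10538 against 27, gave a ratio of 286 (95% counting interval 196 to 434). At ZT14 the 3 ad libitum libraries had 7.695, 15.78 and 25.45 and the 8 fasted ones 171.3 to 4806 (median 2322), again with no overlap, and the difference was 6.68 ± 0.94 (adjusted p = 4.04e-06). Intervals from reads cover counting error only, since reads were amplified without molecular identifiers. Control PBS libraries of the leptin series at ZT2, with no fast recorded, held 374.9 to 784.6 counts of Nts. Their Gal was 1365 to 4083 and their Penk 227.7 to 358.5. For all these genes this lay above every ad libitum sorted library, and the difference between the series was not tested.

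Galanin rose at both times. Gal stood at 184.8 to 471.1 normalised counts (median 338) in ad libitum libraries at ZT2 and at 736.5 to 3470 (median 1881) in fasted ones, and the groups did not overlap. The difference was 2.45 ± 0.39 (SE, limma adjusted p = 8.16e-06). At ZT14 the ad libitum values were 484.8, 218.3 and 203.6 and the fasted ones 614.7 to 3299 (median 1050), with no overlap and a difference of 2.06 ± 0.48 (adjusted p = 0.00239). At ZT14, 9.66% of genes were higher and 8.81% lower, and 4 of the 10 members were higher: Nts, Gal, Trh and Penk. The members' median there was 1.59 against -0.04 over all genes.

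Penk, the enkephalin precursor, was 4.62 to 68.44 (median 20.51) in ad libitum and 73.88 to 2411 (median 171.1) in fasted libraries at ZT2. The lowest fasted value lay just above the highest ad libitum value, and the difference was 3.91 ± 0.74 (SE, adjusted p = 7.84e-05). The 2 highest fasted values at ZT2 came from replicates 6 (2411) and 1 (1203). Replicate 6 was the library with the highest astrocyte sum, and its sum of 28 other neuropeptide genes was 47830, where the remaining sorted libraries held 579.3 to 5284. At ZT14 the values were 29.92, 17.1 and 47.05 against 78.91 to 1132 (median 268.5), with no overlap, a difference of 3.44 ± 0.90 and an adjusted p of 0.00673. The 2 highest at ZT14, 1132 and 1031, were the astrocyte-rich replicates 3 and 4. Without the libraries of high astrocyte sum Penk was still called at both times, by 3.57 at ZT2 (adjusted p = 0.000172) and 2.86 at ZT14 (adjusted p = 0.015). Leaving out ad libitum ZT14 replicate 2 ended the ZT14 call (adjusted p = 0.0662). A processed transcript, A830012C17Rik, lies opposite Penk and shares 233 of its 1634 exon bases, and reads of the pair cannot be told apart if counting ignored strand.

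Somatostatin and CART rose at ZT2. Sst was 3256 to 9140 normalised counts (median 6310) ad libitum and 8094 to 22800 (median 16350) fasted. Only fasted replicate 4 (8094) fell inside the ad libitum range, and the difference was 1.40 ± 0.35 (SE, adjusted p = 0.00179), close to that of Agrp. Cartpt was 752.5 to 1801 (median 1180) ad libitum and 1144 to 11650 (median 3083) fasted. Its groups overlapped through fasted replicate 4, and the difference was 1.42 ± 0.38 (adjusted p = 0.00316). At ZT14 neither passed the test, with differences of 0.48 for Sst (adjusted p = 0.464) and 0.41 for Cartpt (adjusted p = 0.566). The difference between the 2 times was itself tested as an interaction, in which limma called 0 of the 14931 genes (0.0%), edgeR called no member, and 2 members, Kiss1 and Trh, had an unadjusted p under 0.05.

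Pomc was called at ZT2 through a few libraries. It stood at 197.1 to 432 (median 306.6) ad libitum. In the 7 fasted libraries it was 557.4, 1101, 30970, 306.8, 358.1, 8759 and 486.9 in replicates 1 to 7. Replicates 3 and 6 were far above the others, replicates 4 and 5 lay within the ad libitum range, and the difference of 2.21 ± 0.77 (SE) had an adjusted p of 0.0231. Both high libraries were among the 4 with high astrocyte sums, and their summed markers of tanycytes and ependyma, the cells lining the third ventricle, were 2534 and 4654 against at most 334.9 in the sorted libraries of low astrocyte sum. The other 2 of the 4, fasted ZT14 replicates 3 and 4, had higher or similar sums of these markers, 6230 and 4199. Their Pomc was only 321.2 and 426. Fasted ZT2 replicate 3 held 95.2 counts of Prdm12, a transcription factor of POMC neurons. The sum of 7 POMC neuron markers was 5360 in that library and 5080 in fasted ZT2 replicate 6. It was highest, at 6985, in fasted ZT2 replicate 4, which had the lowest Pomc of the group. Without the astrocyte-rich libraries the Pomc difference at ZT2 was 0.78 and was not called (adjusted p = 0.294). It was also not called without fasted ZT2 replicate 3 (adjusted p = 0.08) or 6 (adjusted p = 0.0671) alone, nor after correction for GC content and length (adjusted p = 0.0582). At ZT14 fasted replicate 2 had 7923 counts of Pomc where the other 7 had 123.9 to 1185, and of the fasted libraries it had the highest pituitary sum (Cga 1989, Tshb 312.7). The pituitary also makes POMC. The ad libitum library with the highest pituitary sum, ZT2 replicate 5, had only 381.7 counts of Pomc. The Pomc difference at ZT14 was 1.11 with all libraries (adjusted p = 0.442) and 0.58 without those of high pituitary sum (adjusted p = 0.689).

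**Figure D3:**
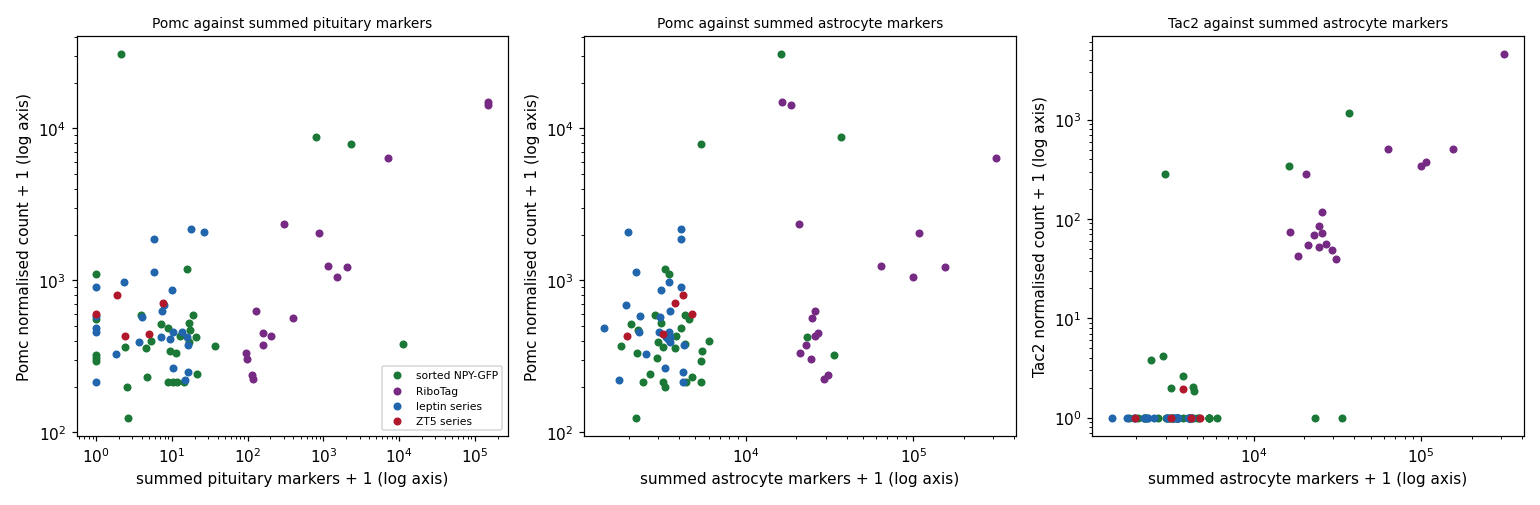
Each library's normalised count plus 1 of Pomc against its summed pituitary markers, of Pomc against its summed astrocyte markers and of Tac2 against its summed astrocyte markers, on log axes, for all 80 libraries coloured by experiment. The highest Pomc values are sorted fasted ZT2 replicate 3 at 30970 and the RiboTag fasted ZT2 replicates with pituitary sums of 150200 and 148500.

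Tac2 and Kiss1 appeared in the same 3 libraries. Tac2 was 0 in 3 of 6 ad libitum libraries at ZT2 and at most 1.608 in the rest. In the fasted libraries it was 342.8, 282.2 and 1177 in replicates 3, 4 and 6 and 0 in the other 4. Kiss1 was 62.74, 28.85 and 265.2 in the same 3 replicates and at most 2.225 in the other 4. The 3 libraries hold all the signal of neurokinin B and nearly all that of kisspeptin in the fasted group. The fitted differences were 3.27 ± 1.23 (SE, adjusted p = 0.0337) for Tac2 and 2.72 ± 0.91 (adjusted p = 0.0178) for Kiss1. They depend on the pseudocount, and the summed reads gave ratios of 627 (1715 against 2 reads, 95% counting interval 173 to 5185) and 239 (326 against 1 read, interval 42.5 to 9450). Without any 1 of the 3 libraries neither gene passed the filter on low values, and Tac2 was not called without ad libitum replicate 1 (adjusted p = 0.0583), 2 (adjusted p = 0.0566) or 6 (adjusted p = 0.0605). Replicates 3 and 6 were astrocyte-rich, whereas replicate 4 had an astrocyte sum inside the low range. Tacr3, the neurokinin B receptor carried by those neurons, was at 9.0, 14.1 and 30.4 counts, and Slc17a6, the vesicular glutamate transporter that AgRP neurons lack, at 208.3 in replicate 4 and 529.1 in replicate 6. In replicate 3 the sum of 3 vesicular glutamate transporter genes was only 23.53. That sum was 0 to 45.95 in the fasted ZT2 libraries without Tac2. Of 6 marker genes of kisspeptin neurons, 5 were tested, 1 was higher (Pdyn) and 3 were lower. All 779 exon bases of Kiss1 are shared with the annotated gene Gm28040 and 102 with Golt1a, so its reads may be split.

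Trh and Ghrh stayed low. Trh was 0 to 9.412 ad libitum and 0 to 35.07 fasted at ZT2, and the difference of 1.33 was not called (adjusted p = 0.272). At ZT14 Trh was 0 in all 3 ad libitum libraries and 4.935 to 124.2 (median 14.48) in all 8 fasted ones. The fitted difference of 4.39 ± 1.14 (SE, adjusted p = 0.00636) depends on the pseudocount, and against a floor of 3 counts over the ad libitum group the fasted level was at least 34-fold higher. The 2 highest, 124.2 and 84.78, were again replicates 3 and 4, which were astrocyte-rich. They also held the 2 highest Ghrh values of that group, 139.2 and 101.5, where the other 6 had at most 2.495. Gsx1, a transcription factor of GHRH neurons, was at 0 in all 15 fasted libraries. Of the markers followed for GHRH and dopamine neurons only Th was called with fasting. It was higher at ZT2 (1.89, adjusted p = 0.00362) and at ZT14 (1.72, adjusted p = 0.0496). Placing Trh at its bound left the members' median at ZT14 where it was. Ghrh differed by 1.14 at ZT2 (adjusted p = 0.442) and 2.11 at ZT14 (adjusted p = 0.292).

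**Figure D4:**
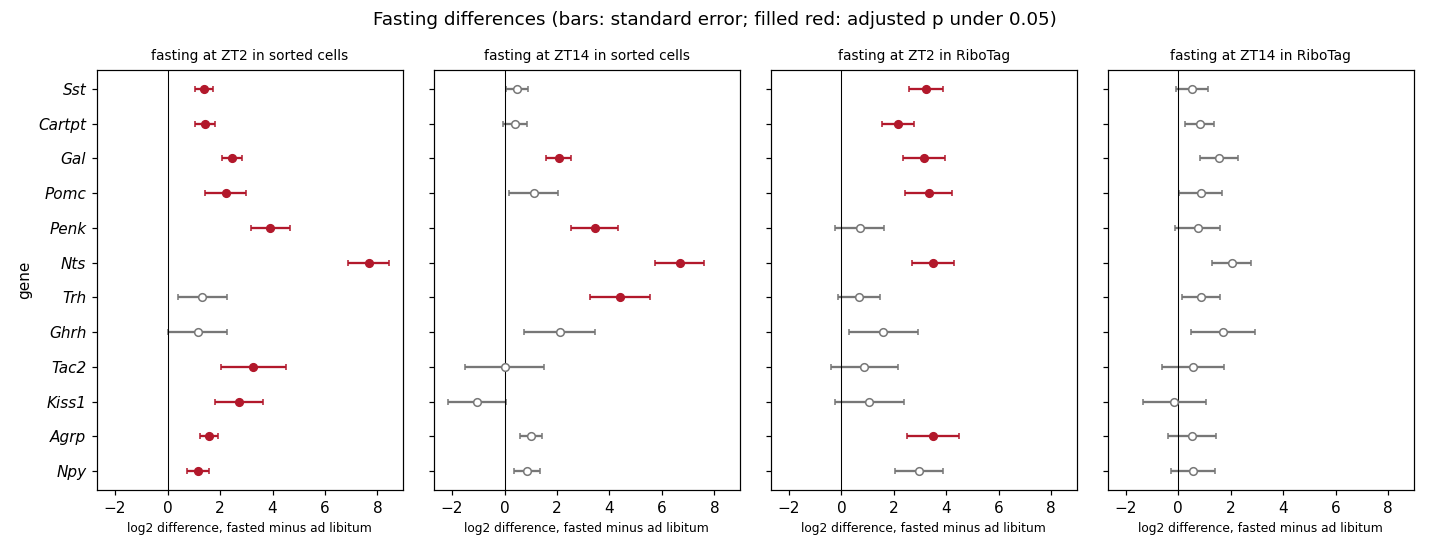
Fitted log2 differences, fasted minus ad libitum, with standard errors, for the 10 peptide genes, Agrp and Npy at ZT2 and ZT14 in sorted cells and in RiboTag; filled red points have an adjusted p under 0.05. Nts and Gal are called in 3 of the 4 panels and in sorted cells Nts has the largest difference of the genes drawn.

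Relative to Agrp, fewer members moved with fasting. The same fit on log2 values minus the library's log2 Agrp called Nts (6.08 ± 0.61 SE, adjusted p = 1.25e-09) and Penk (2.34 ± 0.81, adjusted p = 0.0114) higher at ZT2, where 1.25% of genes were higher and 68.9% lower on this scale. At ZT14, where 1.59% were higher and 28.5% lower, Nts (5.67 ± 0.75, adjusted p = 2.81e-06) and Trh (3.38 ± 1.22, adjusted p = 0.0358) were higher. Gal, Sst, Cartpt and Pomc were not called against Agrp at either time. In group medians per 1000 Agrp counts, Nts went from 0.0857 to 5.87 at ZT2 and from 0.306 to 18.1 at ZT14, and Penk from 0.438 to 2.07 at ZT2. Sst stayed between 103 and 152 in the 4 groups. With Npy as the reference in place of Agrp, Nts, Penk and Gal (1.29, adjusted p = 0.041) were called at ZT2, and Nts alone at ZT14.

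After refeeding for 1 hour at ZT2, Nts was above its ad libitum level and Penk below its fasted level. Nts was 7744, 1543, 786.4, 3695 and 2759 in the 5 refed libraries at ZT2, all above the ad libitum range. It stayed 8.76 ± 0.84 (SE, adjusted p = 1.01e-08) above ad libitum, and its difference of 1.10 from fasted was not called (adjusted p = 0.356). Gal (2.00 ± 0.43, adjusted p = 0.00151), Cartpt (1.33 ± 0.41, adjusted p = 0.0221) and Sst (1.16 ± 0.38, adjusted p = 0.0307) were also above ad libitum, so 4 of 10 members were higher where 9.01% of genes were higher and 8.72% lower. Agrp stood 2.41 ± 0.36 above ad libitum (adjusted p = 2.14e-05). Cartpt was not called without ad libitum replicate 4 (adjusted p = 0.0564) or refed replicate 5 (adjusted p = 0.0554), nor Sst without ad libitum replicate 1 or 2 or refed replicate 1, 3 or 5 (adjusted p 0.0506 to 0.0943).

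Against fasted libraries at ZT2, Penk was lower, as 1 of the 8 members that did not depend on the fasted group to be tested, where 10.8% of genes were higher and 11.1% lower. Penk was 144.9, 48.31, 26.08, 22 and 175.2 in the refed libraries, overlapping the fasted range, with a difference of -2.33 ± 0.78 (SE, adjusted p = 0.0284). Kiss1 was at 0 in 4 refed libraries and at 1.056 in replicate 5. Its difference of -2.74 ± 0.96 (adjusted p = 0.0374) rests on the 3 fasted libraries named above, through which alone the gene was tested, so it supports no count. By summed reads the fasted level was 264 times the refed level (326 against 1 read, 95% counting interval 47.1 to 10465). Tac2, at 0 in 4 refed libraries and 3.167 in replicate 5, differed by -3.41 (adjusted p = 0.0541), and Pomc, at 242.6 to 589, by -1.78 (adjusted p = 0.117). Without the astrocyte-rich fasted libraries neither Penk (adjusted p = 0.0514) nor Pomc (difference -0.35, adjusted p = 0.737) was called, and Kiss1 and Tac2 did not pass the filter. In refed libraries at ZT2 the astrocyte sum was 1806 to 3229. Penk was also not called without fasted replicate 1, 2 or 6 or refed replicate 2, 3 or 4 (adjusted p 0.0512 to 0.0985), nor Kiss1 without any of refed replicates 1 to 4 (adjusted p 0.0658 to 0.0755). Tac2 was called without fasted replicate 1, 2, 5 or 7 (adjusted p 0.0215 to 0.022) or refed replicate 5 (adjusted p = 0.0446).

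At ZT14 refeeding gave fewer calls. Gal was 2216, 2967, 1187 and 1207 in the 4 refed libraries, all above the 3 ad libitum values, and was the 1 member of 10 called against ad libitum (2.65 ± 0.54 SE, adjusted p = 0.0102), where 0.362% of genes were higher and 0.0134% lower. That call was lost without ad libitum replicate 2 (adjusted p = 0.112) or 3 (adjusted p = 0.119) or refed replicate 2 (adjusted p = 0.0616). Nts was 624.9, 1142, 94.43 and 191.8, also above all 3 ad libitum values, with a difference of 4.43 ± 1.06 and an adjusted p of 0.0506, which was 0.0306 without refed replicate 3. Refed against fasted at ZT14, limma called 0 of 10 members, with 6.36% of genes higher and 5.3% lower. Nts and Penk had an unadjusted p under 0.05 there, and edgeR also called 0. Nts was called there without fasted replicate 5 (adjusted p = 0.0175) or 6 (adjusted p = 0.0427).

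Against Agrp, the refed libraries at ZT2 had less of Gal, Sst, Pomc and Penk than the fasted ones. On that scale 4 of the same 8 were lower, Gal by -1.29 ± 0.48 (SE, adjusted p = 0.0408), Sst by -1.07 ± 0.40 (adjusted p = 0.0419), Pomc by -2.62 ± 0.75 (adjusted p = 0.0106) and Penk by -3.16 ± 0.85 (adjusted p = 0.00739), where 0.522% of genes were higher and 30.0% lower. Per 1000 Agrp counts, Pomc was 137.5 and 81.91 in the astrocyte-rich fasted replicates 3 and 6. In the other fasted libraries at ZT2 it was 2.019 to 13.48. Penk was 22.55 in replicate 6 and at most 6.224 in the others. On unscaled values Penk lost its call without the astrocyte-rich libraries, and Pomc was not called with or without them. How far the calls against Agrp rest on those libraries was not tested. Agrp had a mean of 247500 ± 85850 counts (SD, n = 5) in refed and 140600 ± 56820 (SD, n = 7) in fasted libraries at ZT2. Against ad libitum at ZT2, where 0.328% were higher and 91.7% lower relative to Agrp, Nts was higher by 6.35 ± 0.67 (adjusted p = 2.71e-09) and Pomc, Sst and Cartpt were lower, by -1.98, -1.25 and -1.08. Kiss1 is left out of this, since it was at 0 in nearly all libraries of both groups and its ratio restates Agrp. Without scaling, Sst and Cartpt stood above ad libitum, as given above, and Agrp by 2.41. On the Agrp scale most genes were lower, so the lower members are nothing particular to this set. At ZT14, where 0.174% were higher and 2.02% lower, Nts was higher by 3.35 ± 0.84 (adjusted p = 0.0375).

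RiboTag libraries showed a fasting difference of 5 members at ZT2. Of 15444 genes tested 4.08% were higher and 3.81% lower, and Sst, Nts, Gal, Pomc and Cartpt were higher and none lower. The median was 2.17 over the 9 members testable without the fasted group, 1.88 with Kiss1 counted, and -0.19 over all genes. Sst was 2437, 2689 and 4939 ad libitum and 10940, 11690, 64320, 24480 and 119500 fasted, with no overlap and a difference of 3.23 ± 0.65 (SE, adjusted p = 0.00574). Nts was 277.6, 41.46 and 32.94 ad libitum and 382.6, 421.1, 3392, 441.6 and 1558 fasted, again with no overlap (3.48 ± 0.80, adjusted p = 0.013). Gal was 1184, 237.4 and 328.5 ad libitum and 1432, 2215, 22960, 2292 and 6121 fasted, with a difference of 3.14 ± 0.80 (adjusted p = 0.0238). The Gal groups did not overlap either. Replicate 5 of the fasted group had 1489000 counts of Agrp, against 40350 to 124300 in the other 4, and replicate 3 was the library with the highest astrocyte sum.

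The other members of the RiboTag set were less stable. Cartpt was 1824, 818.7 and 1541 ad libitum and 2263, 2565, 16480, 4032 and 19240 fasted, with no overlap (2.17 ± 0.61 SE, adjusted p = 0.0378), but leaving out any 1 ad libitum library (adjusted p 0.0794 to 0.182) or fasted replicate 3 (adjusted p = 0.0608) or 5 (adjusted p = 0.0777) ended its call. Pomc was 1215, 223.6 and 330.3 ad libitum and 563, 14300, 6357, 15000 and 2350 fasted, which overlapped. The 2 values near 15000 were those of the libraries rich in Gh and prolactin (Prl, 17800 and 20340), and without them the difference of 3.32 ± 0.91 (adjusted p = 0.032) became 2.18 and was not called (adjusted p = 0.121). Pomc was also not called without ad libitum replicate 2 (adjusted p = 0.165) or 3 (adjusted p = 0.101), without fasted replicate 2 (adjusted p = 0.0694) or 4 (adjusted p = 0.0619), nor with library totals made equal (adjusted p = 0.0663). Nts and Gal lost their calls without ad libitum replicate 2 or 3, with adjusted p of 0.0843 and 0.0715 for Nts and 0.139 and 0.0842 for Gal, and Gal without fasted replicate 5 (adjusted p = 0.0526). Sst was called in all 17 alternatives. Penk (0.69, adjusted p = 0.667), Trh (0.68, adjusted p = 0.609), Tac2 (0.88), Ghrh (1.59) and Kiss1 (1.06) did not pass the test. Agrp rose by 3.49 ± 0.99 (adjusted p = 0.0385), and relative to Agrp no member was higher, while Penk (-2.80 ± 1.27, adjusted p = 0.0389) and Trh (-2.81 ± 1.30, adjusted p = 0.0421) were lower, where 0.013% of genes were higher and 76.2% lower. Most genes were thus lower on this scale, and these calls are nothing particular to the members. With Npy as the reference no member was called.

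At ZT14 no member passed the test in RiboTag. Limma and edgeR each called 0 of 10, where 4.15% of genes were higher and 1.14% lower by limma, and only Nts had an unadjusted p under 0.05. Nts was 69.6, 78.55, 115.3 and 76.62 ad libitum and 502.9, 144.9, 645, 701.8 and 145.9 fasted. The groups did not overlap, yet the difference of 2.03 ± 0.73 (SE) had an adjusted p of 0.126. Gal differed by 1.55 ± 0.74 (adjusted p = 0.263). The interaction of fasting with time called 0 genes in RiboTag (0.0%), although Sst had a difference of -2.71 between the times at an unadjusted p of 0.00676, and edgeR called no member.

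RiboTag libraries held more of several peptide genes than sorted ones, along with more of the markers of glia and vessels. Method, strain and collection differ together between the 2 preparations and cannot be told apart. Among ad libitum libraries of both times, 7 RiboTag and 9 sorted, 15182 genes were tested, 42.7% were higher in RiboTag and 27.1% lower, and 9 members passed the filter. Trh was higher by 7.91 ± 0.56 (SE, adjusted p = 1.31e-09), with 195.1 to 1000 counts in RiboTag against 0 to 9.412 in sorted cells. Tac2 was higher by 6.40 ± 0.59 (adjusted p = 2.75e-08), with 38.5 to 508.2 against at most 1.608. The groups of each gene were far apart. Ghrh was higher by 3.90 ± 0.64 (adjusted p = 2.61e-05). Trh, Tac2 and Ghrh never reached 10 counts in the ad libitum sorted libraries and were tested only through RiboTag, where they are high, so their calls describe the levels and support no count. Of the other 6 members tested, Penk (4.50 ± 0.54, adjusted p = 7.72e-07) and Nts (3.06 ± 0.67, adjusted p = 0.000478) were higher. Fitted differences of the lowest genes depend on the pseudocount, and summed reads gave ratios of 360 for Trh (95% counting interval 195 to 751), 678 for Tac2 (1613 against 2 reads, 187 to 5602) and 24.3 for Ghrh (231 against 8 reads, 12.1 to 56.9). Sst was lower by -0.86 ± 0.23 (adjusted p = 0.00287), which correction for GC content and length ended (adjusted p = 0.111). Pomc (0.61, adjusted p = 0.123), Gal (0.51, adjusted p = 0.175) and Cartpt (-0.16, adjusted p = 0.556) were not called.

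Markers of other cells moved the same way, and their part in the members' differences was not tested. All 8 astrocyte, 8 oligodendrocyte, 7 microglial and 6 endothelial markers were higher in ad libitum RiboTag, as were 14 of 18 other neuropeptide genes tested, among them Pmch (8.90) and Hcrt (8.17) of the lateral hypothalamus and Avp (10.34). Over all genes 42.7% were higher. In ad libitum sorted libraries the microglial sum was at most 28.41 and the endothelial sum at most 35.91. Genes near 0 in sorted cells were tested only through RiboTag, so these counts describe levels and support no more. Differences of the astrocyte genes Agt (11.1) and Gja1 (10.5) and of the endothelial gene Cldn5 (9.77) exceeded that of Trh. Agrp was lower by -2.05 ± 0.26 (SE, adjusted p = 1.26e-06). Relative to Agrp the 6 members tested without help from RiboTag were all higher, where 89.5% of genes were higher and 0.375% lower. Ad libitum RiboTag ZT2 replicate 1 shows the range within a group: it had the highest astrocyte sum of its group (155300), the lowest Agrp (4840) and the highest Penk (1810), Trh (1000), Tac2 (508.2) and Ghrh (71). Without the libraries rich in astrocyte markers Trh (7.31), Tac2 (5.54), Penk (3.85), Ghrh (3.29) and Nts (2.5) were still called. The RiboTag libraries kept had astrocyte sums of 21100 to 30950, against at most 6011 in ad libitum sorted libraries. That fit therefore leaves the glial difference between the preparations in place, and Trh, Tac2 and Ghrh still depended on RiboTag to be tested.

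Among fasted libraries, 10 RiboTag and 15 sorted, 30.1% of 14949 genes were higher in RiboTag and 15.5% lower. Trh (5.82 ± 0.66 SE, adjusted p = 1.18e-07), Tac2 (5.48 ± 1.09, adjusted p = 0.000213), Ghrh (3.93 ± 0.97, adjusted p = 0.00184) and Penk (1.54 ± 0.60, adjusted p = 0.0368) were higher. Tac2 and Ghrh were again tested only through RiboTag. Summed reads gave smaller ratios for these genes than the fits, 2.84 for Tac2 (95% counting interval 2.68 to 3.02) and 6.27 for Ghrh (5.51 to 7.15), with 31.3 for Trh (28.2 to 34.9). The 1715 reads of Tac2 in fasted sorted cells came from the fasted ZT2 group alone. Kiss1 was not called (0.95, adjusted p = 0.386), and its summed reads went the other way, with a ratio of 0.384 (0.297 to 0.49). Nts was lower by -1.35 ± 0.53 (adjusted p = 0.0392), a call lost in 16 of 34 alternatives. The difference was -0.14 after correction for GC content and length (adjusted p = 0.799) and -0.93 without the pituitary-rich libraries (adjusted p = 0.215). The call was also lost without RiboTag ZT14 replicate 2 or 5, RiboTag ZT2 replicate 1, 2 or 4, sorted ZT14 replicate 1, 2, 7 or 8, or sorted ZT2 replicate 1, 2, 3 or 4 (adjusted p 0.0509 to 0.0798). The Penk call was lost in 12 of 34, among them those without RiboTag ZT14 replicate 3 or 4, RiboTag ZT2 replicate 3, sorted ZT14 replicate 7 or 8, or sorted ZT2 replicate 3, 4, 5 or 7 (adjusted p 0.0516 to 0.0916). Relative to Agrp 6 of the 7 members that did not depend on RiboTag to be tested were higher, where 56.2% of genes were higher and 0.201% lower. The other was Nts, at -0.01.

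Leptin, the fat-derived hormone that reports energy stores, was followed by higher Pomc. Of 13942 genes 0.789% were higher with leptin and 0.136% lower, and of the 7 members that passed the filter on low values Pomc alone was called. At ZT2 control libraries had 425.6, 458.4, 412.2 and 426.1 counts with PBS and 861.9, 568.8 and 2177 with leptin. Every leptin value lay above every PBS value. At ZT14 controls had 458.8, 249.1 and 377.3 with PBS and 624, 390 and 902.5 with leptin, which overlapped at the lowest leptin value. Knockouts had 327.2, 219.3 and 584 with PBS and 687.9, 2081 and 484.1 with leptin at ZT2, and 214.1, 263.3 and 453.7 against 1875, 971.3 and 1130 at ZT14. The ZT2 knockout groups overlapped and the ZT14 groups did not.

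**Figure D5:**
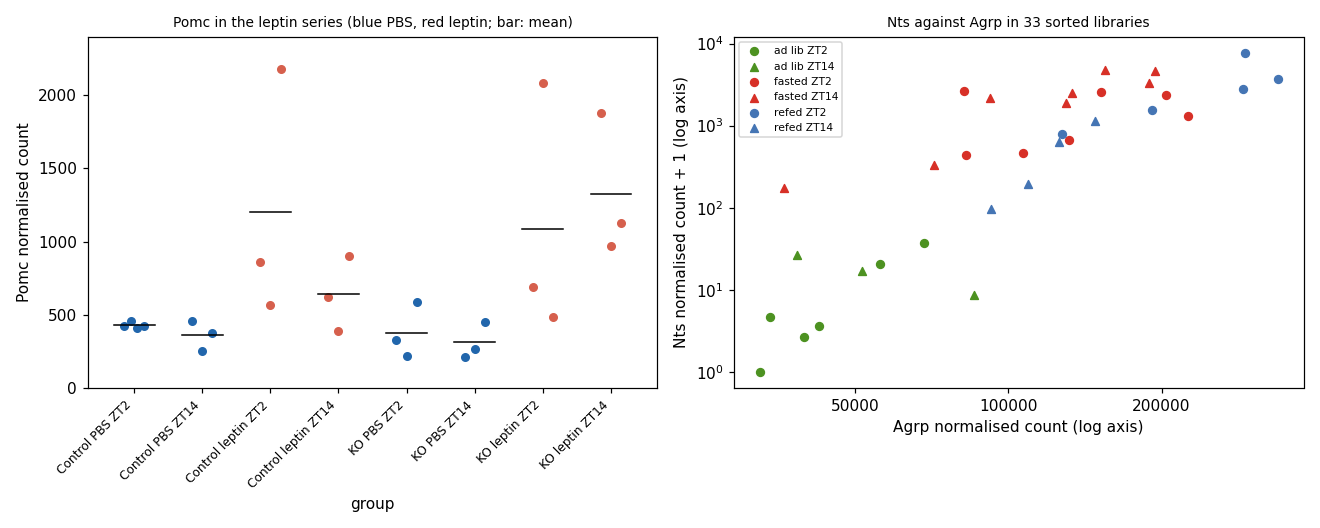
Left, Pomc normalised count in each library of the leptin series by group, with PBS in blue, leptin in red and the group mean as a bar; right, Nts normalised count plus 1 against Agrp in the 33 sorted libraries on log axes, by nutrient state (colour) and time (symbol). PBS libraries lie between 214.1 and 584 on the left, and on the right ad libitum libraries lie at or below 35.91 counts of Nts whatever their Agrp.

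Over both genotypes and times the leptin difference of Pomc was 1.37 ± 0.24 (SE, limma adjusted p = 0.00299). It was called in all 32 alternatives, at 1.22 to 1.49 with adjusted p of 0.00119 to 0.00899, and relative to Agrp it was 1.33 ± 0.29 (adjusted p = 0.0492, where 0.143% of genes were higher and 0.00717% lower). Mean Pomc with PBS was 430.6 ± 19.65 (SD, n = 4) and with leptin 1203 ± 856.7 (SD, n = 3) in controls at ZT2, and 310.4 ± 126.6 against 1325 ± 482.7 (SD, n = 3 each) in knockouts at ZT14. In this series the astrocyte sum was 1426 to 4293, the pituitary sum at most 25.34 and the sum of 7 POMC neuron markers 2434 to 6372, and none of the 4 POMC neuron markers, 8 astrocyte markers or the 1 pituitary marker tested was called with leptin. Agrp differed by 0.04.

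The response to leptin was not shown to depend on the genotype. The interaction called 0 of 13942 genes with limma (0.0%), and edgeR called no member. An unadjusted limma p under 0.05 was found for 651 genes, and for 3 of the 7 members tested. Pomc had an interaction of 0.71 ± 0.48 (SE, unadjusted p = 0.151, adjusted p = 0.919). Gal had the largest of the members, 1.92 ± 0.67 (unadjusted p = 0.00863, adjusted p = 0.919). With leptin itself Penk (0.84 ± 0.38, adjusted p = 0.692) and Trh (1.2 ± 0.66, adjusted p = 0.922) did not pass the test, and Nts, Sst, Cartpt and Gal had differences between 0.01 and 0.18. Between knockouts and controls limma and edgeR called 0 of 7 members, with 0 at an unadjusted p under 0.05, where 0.0287% of genes were higher and 0.0502% lower. Arntl, the symbol of Bmal1, differed by -0.84 (adjusted p = 0.143) in the leptin series and by -0.12 (adjusted p = 0.931) at ZT5, so the targeted gene was not called in either.

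At ZT5, 7 members passed the filter and none was called. Cartpt was 5280 and 5397 in controls and 3612, 3785 and 4598 in knockouts, with no overlap. Its difference was -0.42 ± 0.17 (SE, unadjusted p = 0.0314, adjusted p = 0.537), and limma called 0 of 12940 genes (0.0%), with 1 member at an unadjusted p under 0.05 and edgeR calling no member. Pomc was 796 and 597.1 against 444.2, 430.3 and 711.1, which overlapped. Nts was 31.34 and 466.6 in controls and 14.72, 1161 and 434.7 in knockouts, with overlapping groups. Ghrh and Kiss1 were at 0 in all 5.

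No member was called for time of day by limma. The share of genes called in either direction was 0.0% in ad libitum sorted cells, 0.281% in fasted, 0.0268% in refed, 0.0% in ad libitum and fasted RiboTag and 0.638% in the leptin series. At an unadjusted p under 0.05 the members numbered 0, 3, 1, 0, 4 and 1 in that order. In fasted sorted cells these 3 were Kiss1 (-2.84 ± 0.85 SE, adjusted p = 0.16), Tac2 (-3.82 ± 1.14, adjusted p = 0.156) and Trh (1.99, adjusted p = 0.425). The first 2 rest on the 3 ZT2 libraries described above, since Tac2 was 0 in all 8 fasted libraries at ZT14. edgeR called Kiss1 and Tac2 there and no member in the other groups. In fasted RiboTag the 4 were Pomc, Cartpt, Sst and Gal. Relative to Agrp, Penk (2.64 ± 1.10, adjusted p = 0.0364) and Trh (2.89 ± 1.13, adjusted p = 0.0323) were higher at ZT14 in fasted RiboTag, where 63.2% of genes were higher and 0.013% lower. Most genes were thus higher on this scale, and these calls are nothing particular to the members. Fasted ZT2 replicate 5 held 1489000 counts of Agrp, against 40350 to 124300 in the rest of its group. With Npy as the reference no member was called.

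Within groups, Nts and Gal followed Agrp in 1 group each. For this, 16 relations of a member to Agrp were computed in sorted groups of 6 to 8 libraries, on log2(normalised count + 1), with exact two-sided permutation tests. In the 8 fasted libraries at ZT14 Nts gave Pearson's r = 0.94 (exact permutation p = 0.00169, adjusted 0.0222) and Spearman's rho = 0.905 (exact p = 0.00456, adjusted 0.0365). Without the 2 libraries farthest from the median of Agrp, r was 0.738 (n = 6, exact p = 0.0944), which no longer passed the threshold although r stayed high. In the 6 ad libitum libraries at ZT2 Gal gave r = 0.9 (exact p = 0.00278, adjusted 0.0222) and rho = 1.0 (exact p = 0.00278, adjusted 0.0365), and r = 0.947 without the 2 farthest (n = 4, exact p = 0.0833, the smallest that size allows). Nts in the 7 fasted libraries at ZT2 gave r = 0.381 (exact p = 0.376). The other relations, among them Pomc in the ad libitum libraries at ZT2 (r = 0.771, exact p = 0.1), did not pass the threshold. Npy followed Agrp with r of 0.98, 0.955 and 0.994 in the 3 groups.

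Over all 33 sorted libraries, with group means subtracted, Nts had the highest rank correlation with Agrp among the members (rho 0.65), followed by Pomc (0.35), Sst (0.31) and Cartpt (0.30), with Gal at 0.17, Penk at -0.07 and Trh at -0.12. These are descriptions over libraries that share preparation and scaling. Npy was the gene most like Agrp, with rho 0.97. The genes most like the members were Arl4a for Nts (rho 0.78), Fxyd2 for Sst (0.80), Ap2s1 for Cartpt (0.80), Commd4 for Gal (0.78), Gpx7 for Penk (0.78) and Spin2 for Pomc (0.75). Genes of low mean level could not be named as nearest, which left out Ghrh, Kiss1, Tac2 and Trh. None of Pomc, Cartpt, Sst, Gal, Nts and Penk was the nearest gene of another member.

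Other genes of these systems were followed through fasting. Of 28 other neuropeptide genes 14 passed the filter in sorted cells, and 6 were higher at ZT2 and 3 at ZT14, with none lower, where 18.3% and 9.66% of all genes were higher. Pdyn, the dynorphin precursor, was higher by 5.13 at ZT2 (adjusted p = 3.88e-07) and 3.25 at ZT14 (adjusted p = 0.0054), and Tac1, which encodes substance P, by 6.03 (adjusted p = 2.22e-05) and 6.63 (adjusted p = 0.000297). Of 21 receptors for the members' peptides 15 were tested, with 2 higher and 4 lower at ZT2 and 2 higher and 3 lower at ZT14. Over all genes 18.3% were higher and 19.2% lower at ZT2 and 9.66% and 8.81% at ZT14, and the ZT2 counts lie near those shares. Sstr1, a somatostatin receptor, was lower by -5.05 at ZT2 (adjusted p = 6.54e-09) and Sstr2, another, was higher by 1.66 (adjusted p = 0.000297). Oprm1, a receptor for enkephalin, was lower by -3.88 at ZT2 (adjusted p = 0.000118) and -3.31 at ZT14 (adjusted p = 0.0105). The neurotensin receptors Ntsr1 (2.93, adjusted p = 0.019) and Ntsr2 (6.37, adjusted p = 0.017) were higher at ZT14, and 4 of 8 astrocyte markers were higher at ZT14 and 3 of 8 at ZT2. With leptin, 1 of 14 receptors tested was called, Oprk1, the dynorphin receptor, at -1.16 (adjusted p = 0.0141).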

How the data were processed

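RNA from sorted or immunoprecipitated material was amplified with SMART-seq v4 and made into Nextera XT libraries, per the labels' protocols. The submitters' processing notes name STAR 2.5.1, featureCounts, DESeq2 and mm10. The authors deposited 1 table of normalised counts (a signal, not raw counts), reads per gene divided by a factor for each library. In 79 of 80 libraries at least 99.99% of values were whole multiples of 1 read (tolerance 0.1); these recovered reads served edgeR 4.0.16 and the depths. Ad libitum NPY-GFP ZT2 replicate 4 did not resolve and was left out of edgeR.

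Each experiment was fitted with limma 3.58.1 (trend, R 4.3.3) on log2(normalised count + 1), all its groups sharing 1 spread, over genes that reached 10 in a number of libraries equal to the smallest group size, with Benjamini-Hochberg adjustment over all genes tested and a threshold of 0.05. All members were named, with the list genes of smallest p. The members, marker lists and tests were chosen with earlier results of these data known. Alternatives were pseudocounts of 0.5 and 10, no filter, edgeR, equal totals, GC and length correction, a replicate block, leaving out each library and, chosen after seeing the data, leaving out libraries with high astrocyte or pituitary sums. Fits were tested on simulated data. Transcript lengths came from GENCODE M21, where 463 symbols did not match.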

Additional observations from a re-analysis of the deposited data

Results flagged for a closer look

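Of 76 member and group combinations of 4 to 10 libraries, 3 held a library far from the others of its group by Dixon's test, where chance gives about 1 in 20 if values are not tied. Penk in RiboTag fasted ZT2 replicate 3 stood at 8898 normalised counts, with 0.81 of the group's range between it and the next library (critical value 0.71). That library also had the highest astrocyte sum of the series, 312100, and its part in the Penk level was not tested. Gal in control PBS ZT2 replicate 1 of the leptin series stood at 4083 against 1365 to 1643 in the other 3 libraries, with 0.831 of the range (critical value 0.829). Ghrh in sorted refed ZT14 replicate 1 stood at 13.1 where the other 3 libraries were at 0 (1.0 of the range, critical value 0.829). With the others tied at 0, any value above 0 gives 1.0, so this flag tests nothing.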

How the results depend on the processing

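The numbers of members called were recomputed under 508 alternatives for 22 comparisons, and 473 lay within 1.5 times the main number; 14 comparisons kept theirs under all. Of 915 values for 41 single-gene results, 814 kept their call, 82 lost one, 19 gained one and 0 changed sign. Without astrocyte-rich libraries fasting at ZT2 in sorted cells gave 5 members and refed against fasted at ZT2 gave 0. The latter gave 4 with edgeR and 1 after GC and length correction. Refed against fasted at ZT14 gave 1 with a pseudocount of 10 and 2 with the replicate block, and refed against ad libitum at ZT14 gave 2 with edgeR, equal totals, GC and length correction, the replicate block or without pituitary-rich libraries. The replicate numbers did not pair the libraries, since no comparison had every pair's correlation over 0.1 (range -0.44 to 0.455). Time of day in fasted sorted cells gave 2 with edgeR. With Npy as the reference in place of Agrp, fasting at ZT14 in sorted cells gave 1, refed against ad libitum 2 at ZT2 and 0 at ZT14, fasting at ZT2 in RiboTag 0 and time of day in fasted RiboTag 0. The cause of these changes was not tested. Leaving out 1 library gave 5 to 8 members for fasting at ZT2 and 3 to 4 at ZT14 in sorted cells, 1 to 5 for fasting at ZT2 in RiboTag, 0 to 3 for refed against fasted at ZT2 and 0 to 1 at ZT14, 2 to 4 for refed against ad libitum at ZT2 and 0 to 2 at ZT14, 6 to 7 for RiboTag against sorted ad libitum and 3 to 5 fasted, and 1 for leptin. Without the 2 libraries farthest from the Agrp median, r was 0.738 for Nts and 0.947 for Gal.

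Values of a few reads limit Ghrh, Kiss1, Tac2 and Trh in sorted cells, where differences depend on the pseudocount. Groups of 3 ad libitum libraries at ZT14 in sorted cells and ZT2 in RiboTag limit those comparisons. Marker sums of other cells were high in some libraries. They do not measure the number of such cells, and the part of those cells was not tested.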
